A study of Mus musculus with 12 samples.

Results

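The genes described here are 10 genes of the primitive streak and its mesendoderm: T, Eomes, Mixl1, Gsc, Lhx1, Mesp1, Fgf8, Wnt3, Cer1 and Pdgfra. They were taken by symbol from a deposited table of 23427 mouse genes, and all 10 were found in it. Their values in that table were known when they were chosen, most being blank in 1 of the cell lines, so their levels and differences are given as a description without tests. The table comes from RNA-seq of heart muscle cells grown in culture from CM7/1, a mouse embryonic stem cell line, in a version that can overexpress the transcriptional repressor Hey1 and another for Hey2. There were 4 groups of 1 library each. Uninduced cells of the Hey1 line and of the Hey2 line had received no doxycycline, and induced cells of each line had received 1000 ng/ml doxycycline for 48 h. RNA of cells given the drug but carrying no Hey transgene was not analysed here, so an effect of the drug and one of the Hey gene cannot be told apart. Whether a line is a single clone is not given in the sources used here.

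The primitive streak is the furrow of the gastrulating embryo through which epiblast cells leave to form mesoderm and definitive endoderm. Nodal, Wnt and Bmp signals start it, with Wnt3 and the T-box factors T (Brachyury) and Eomes among its earliest genes, and in embryonic stem cell cultures the same genes come on briefly as cells leave pluripotency. Mesp1 follows in the mesoderm that gives rise to the heart, and beating cardiomyocytes no longer express most of these genes.

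Levels are in RPKM, read numbers scaled by gene model length and by library size, so that different genes can be compared. The reads behind them were recovered from the steps of the values, and came to between 2296145 and 4182141 reads in listed genes per library. Blank cells stand for fewer than about 10 reads in the Hey1 line and about 5 in the Hey2 line, which gives each gene a floor in RPKM. Intervals are 95% intervals of counting error only, because no group had a second library. The induced genes were high where the labels place them. Hey1 was at 0.735 RPKM in the uninduced and 8.59 RPKM in the induced Hey1-line library, and Hey2 was blank in uninduced Hey2-line cells (floor 0.343 RPKM) and at 6.59 RPKM after induction.

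The cultures of the 2 lines differed in their cell type markers, which matters for every comparison between them. All 8 cardiomyocyte markers (Myh6, Myh7, Tnnt2, Actc1, Myl7, Myl4, Nppa and Ryr2) were listed in every library. Their summed level was 20369 RPKM uninduced and 20778 RPKM induced in the Hey1 line. The Hey2 line had 1096 and 1147 RPKM. Of 9 pluripotency markers 8 were listed in the Hey1 line, at summed levels of 38.4 and 29.5 RPKM, and all 9 in the Hey2 line, at 318 and 337 RPKM. All 4 libraries carry the label cardiomyocytes, and that of the Hey2 line stands beside higher pluripotency and lower cardiomyocyte marker levels than in the Hey1 line. In bulk RNA, fewer cells of a type and less RNA per cell cannot be told apart.

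Promoters are shown for the T-box genes T and Eomes and for Cer1, the genes with the highest level and, among those with a promoter entry, the largest differences on Hey2 induction. The 250 bases before the RefSeq start (build GRCm38.p6, not the build of the expression data) read 5′ to 3′ on the gene's strand. They are shown because T-box, Wnt and Nodal inputs meet at such genes, and capitals mark the TCF/LEF core.
T (chr17:8434173-8434422, plus strand): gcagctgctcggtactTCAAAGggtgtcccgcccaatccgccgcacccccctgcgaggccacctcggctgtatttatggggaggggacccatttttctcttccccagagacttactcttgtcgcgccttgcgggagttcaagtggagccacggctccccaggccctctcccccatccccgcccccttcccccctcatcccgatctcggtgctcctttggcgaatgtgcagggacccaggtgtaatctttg
Eomes (chr9:118477939-118478188, plus strand): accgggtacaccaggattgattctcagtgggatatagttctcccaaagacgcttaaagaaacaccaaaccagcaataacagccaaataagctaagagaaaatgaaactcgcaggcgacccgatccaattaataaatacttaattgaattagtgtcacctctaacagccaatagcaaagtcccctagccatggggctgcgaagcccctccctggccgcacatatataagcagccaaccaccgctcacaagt
Cer1 (chr4:82885152-82885401, minus strand): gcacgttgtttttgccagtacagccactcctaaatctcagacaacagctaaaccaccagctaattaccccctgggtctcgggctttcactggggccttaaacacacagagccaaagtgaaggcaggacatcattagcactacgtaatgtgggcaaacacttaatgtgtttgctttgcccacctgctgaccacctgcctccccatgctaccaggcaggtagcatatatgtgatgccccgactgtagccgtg
Promoters were found for 8 of the 10 genes, all but Mixl1 and Fgf8. Each 250-base window was searched on both strands, and no motif contains another. The E-box CACGTG and the class C site CACGCG, both known as sites for Hey proteins, were in 0 of these 8 windows, beside 6.02% and 7.62% of all 32851 promoters. The T-box site GGTGTGA was in 0 of 8 (3.33% of all), and the FoxH1 site AATCCACA in 0 of 8 (0.718% of all). The TCF/LEF core CTTTGA, which mediates Wnt signals, was in the windows of T and Mesp1, 2 of 8 (13.8% of all), and the TATA box TATAAA in that of Gsc (12.4% of all). These are letter matches within a short window and say nothing of binding.

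Among the transcription factors, T (Entrez 20997) was the most abundant gene of the set. In the Hey2 line it measured 17.6 RPKM (15.3 to 20.2) without induction and 14.2 RPKM (12.7 to 15.9) with it, from 207 and 302 reads, and was blank in both Hey1-line libraries (floors 0.660 and 0.652 RPKM). Eomes (Entrez 13813), a T-box factor that acts beside T and is needed for cells to leave the epiblast, stood at 5.86 RPKM (5.05 to 6.77) and 2.97 RPKM (2.54 to 3.45), from 186 and 170 reads, and was blank in the Hey1 line (floors 0.245 and 0.242 RPKM). Both T-box genes were thus listed in the Hey2 line alone, and both were lower in its induced library.

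Mixl1 (Entrez 27217), a paired-type homeobox factor that directs endoderm formation, was the only transcription factor of the set with a value in all 4 libraries. Its Hey1-line values were 4.37 RPKM (3.43 to 5.48) uninduced and 2.80 RPKM (2.06 to 3.71) induced, and its Hey2-line values 6.76 RPKM (5.43 to 8.32) and 2.48 RPKM (1.89 to 3.20). Both induced libraries lay below both uninduced ones.

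The other 3 transcription factors rested on few reads. Lhx1 (Entrez 16869), a LIM homeobox factor of the node and anterior mesendoderm, stood at 4.74 RPKM (2.65 to 7.82) and 2.80 RPKM (1.60 to 4.55) in the Hey2 line, from at least 15 and 16 reads. Gsc (Entrez 14836), the homeobox repressor of the organizer, stood at 1.78 RPKM (0.652 to 3.87) and 1.31 RPKM (0.567 to 2.59) there, from at least 6 and 8 reads. Their recovered lengths of 550 and 587 bases are the smallest that give whole reads. The true lengths are probably a multiple, so the read numbers would be higher, the intervals narrower and the floors lower. Both were blank in the Hey1 line. At the smallest lengths the floors there were 2.46 and 2.42 RPKM for Lhx1 and 2.30 and 2.27 RPKM for Gsc. Mesp1 (Entrez 17292), the bHLH factor of cardiac mesoderm, was listed in induced Hey2-line cells alone, at 0.447 RPKM (0.145 to 1.04) from 5 reads. That is below the floor of 0.807 RPKM in uninduced Hey2-line cells and those of 1.25 and 1.24 RPKM in the Hey1 line, so Mesp1 gives no comparison at this depth.

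Of the ligands, Fgf8 (Entrez 14179), which cells need to migrate out of the streak, was second only to T. Hey2-line cells held 11.9 RPKM (9.72 to 14.4) of it uninduced and 9.42 RPKM (7.96 to 11.1) induced, from 103 and 147 reads, and it was blank in the Hey1 line (floors 0.899 and 0.887 RPKM). Wnt3 (Entrez 22415), the Wnt ligand required to form the streak, stood at 2.62 RPKM (1.93 to 3.49) and 1.64 RPKM (1.23 to 2.15) in the Hey2 line, from 47 and 53 reads, and was blank in the Hey1 line (floors 0.434 and 0.428 RPKM). Cer1 (Entrez 12622), a secreted inhibitor of Nodal, Bmp and Wnt signals made by anterior endoderm, stood at 4.89 RPKM (3.62 to 6.47) and 2.60 RPKM (1.91 to 3.46) from 49 and 47 reads, and was blank in the Hey1 line (floors 0.776 and 0.765 RPKM). All 3 were thus listed in the Hey2 line alone, like T and Eomes. In its induced library Wnt3 and Cer1 were lower beyond counting error and Fgf8 was not.

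Pdgfra (Entrez 18595), a receptor tyrosine kinase of early mesoderm that fibroblasts and primitive endoderm also make, was the other gene listed everywhere. Its Hey1-line values were 0.662 RPKM (0.456 to 0.930) uninduced and 0.594 RPKM (0.401 to 0.848) induced, and its Hey2-line values 2.71 RPKM (2.22 to 3.28) and 2.95 RPKM (2.56 to 3.38). Its libraries fell by line, and not by induction.

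**Figure D1:**
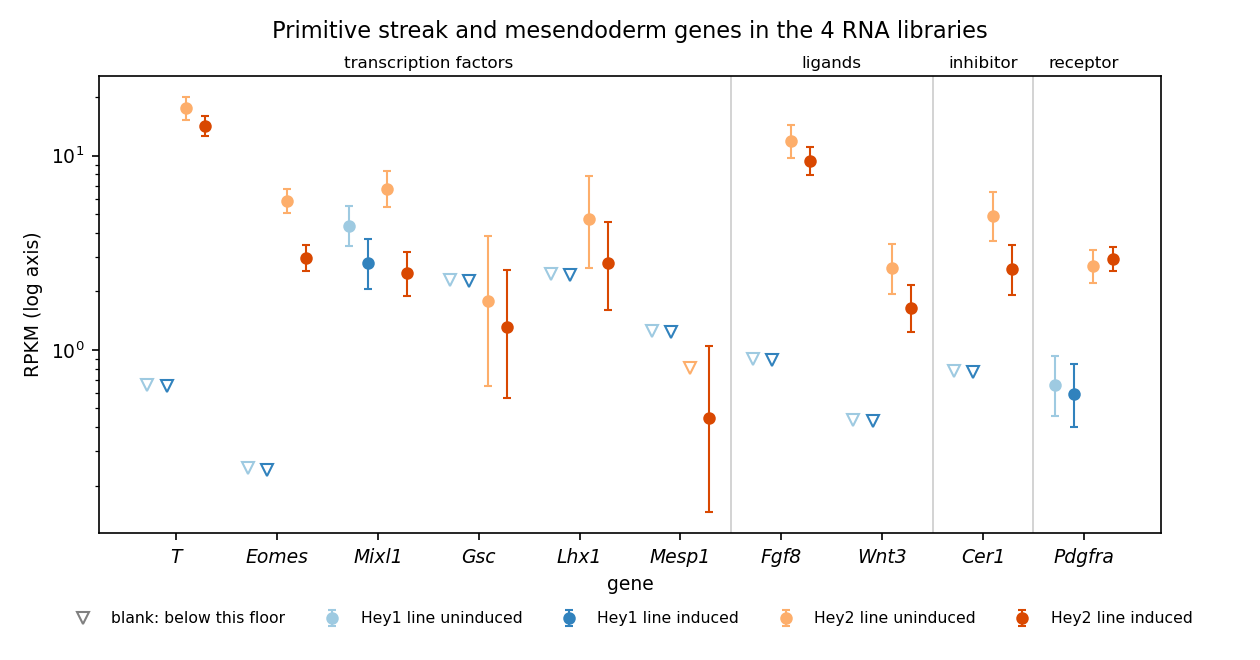
RPKM of the 10 genes (log axis) in the 4 libraries, with 95% counting intervals, grouped by role; open triangles mark the floor of a blank library. T and Fgf8 lead in the Hey2 line, at 17.6 and 11.9 RPKM uninduced, and only Mixl1 and Pdgfra have values in the Hey1 line.

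Induction of Hey2 was examined first, since 9 of the 10 genes had a value in both of its libraries. T, Eomes, Mixl1, Cer1 and Wnt3 were lower in the induced library beyond counting error, by 1.24-fold to 2.72-fold, and no gene of the set was higher beyond it. Mixl1 was 2.72-fold lower (1.94 to 3.85), the largest difference of the 9. Eomes was 1.97-fold lower (1.59 to 2.45), Cer1 1.88-fold (1.23 to 2.87), Wnt3 1.60-fold (1.06 to 2.42) and T 1.24-fold (1.03 to 1.48).

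Lhx1, Gsc, Fgf8 and Pdgfra had ratios within counting error, those of Lhx1 and Gsc as judged at their smallest lengths. The point values were 1.69-fold lower for Lhx1 (ratio of induced to uninduced 0.591, 0.274 to 1.28), 1.35-fold lower for Gsc (0.739, 0.225 to 2.58) and 1.26-fold lower for Fgf8 (0.791, 0.611 to 1.03). That of Pdgfra was 1.09-fold higher (0.855 to 1.39). If the length of Lhx1 were 4 times the smallest, at 2200 bases, its interval would be 1.17-fold to 2.44-fold lower.

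In all, 8 of the 9 genes had a ratio under 1, as did 51% of 11949 genes, those listed in both libraries whose mean reached 1 RPKM. The interval lay below 1 for 5 of 9, beside 6.72% of all such genes, and above 1 for 0 of 9, beside 7.88%. With Lhx1 and Gsc at 4 times their smallest lengths, it lay below 1 for 6. The median log2 ratio was −0.68 over the 9 genes and −0.01 over all. On the log2(RPKM + 1) scale, which damps differences of low genes, only Mixl1 was at least 2-fold lower, at −1.16, beside 0.0921% of all genes, and 0 of 9 were 2-fold higher, beside 0.0251%. Since the set was chosen with these values known, the counts describe it and do not test it. The summed level of the set was 58.9 RPKM in uninduced and 40.9 RPKM in induced Hey2-line cells.

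Between genes the ratios ranged from 0.367 for Mixl1 to 1.09 for Pdgfra, given as a description of these 2 libraries. The log2 ratio of Mixl1 was 1.14 below that of T (counting interval 0.60 to 1.68), and that of Eomes 0.67 below it (0.28 to 1.07). Of 36 pairs, 10 had such an interval off 0, and 5 when intervals were widened for the number of pairs. Widened, those for Mixl1 and Eomes against T were 0.26 to 2.02 and 0.03 to 1.32. Between T and Fgf8 the difference was 0.03 (−0.41 to 0.48), and between Eomes and Mixl1 it was 0.46 (−0.10 to 1.02), so neither pair was told apart by these reads.

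The order of levels was not the same in both libraries. In uninduced Hey2-line cells Mixl1 ranked 3, behind T and Fgf8, and in induced cells it ranked 7. T exceeded Fgf8 by 1.48-fold (1.16 to 1.89) uninduced and 1.51-fold (1.24 to 1.85) induced. Fgf8 exceeded the next gene by 1.76-fold (1.31 to 2.37), that gene being Mixl1, and by 3.17-fold (2.53 to 3.98), that gene being Eomes. From Mixl1 downward to Gsc in uninduced cells, and from Eomes downward to Mixl1 in induced cells, no neighbours differed beyond counting error. In the latter, Mixl1 exceeded Wnt3 by 1.51-fold (1.03 to 2.24), while Wnt3, Gsc and Mesp1 did not differ between neighbours.

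**Figure D2:**
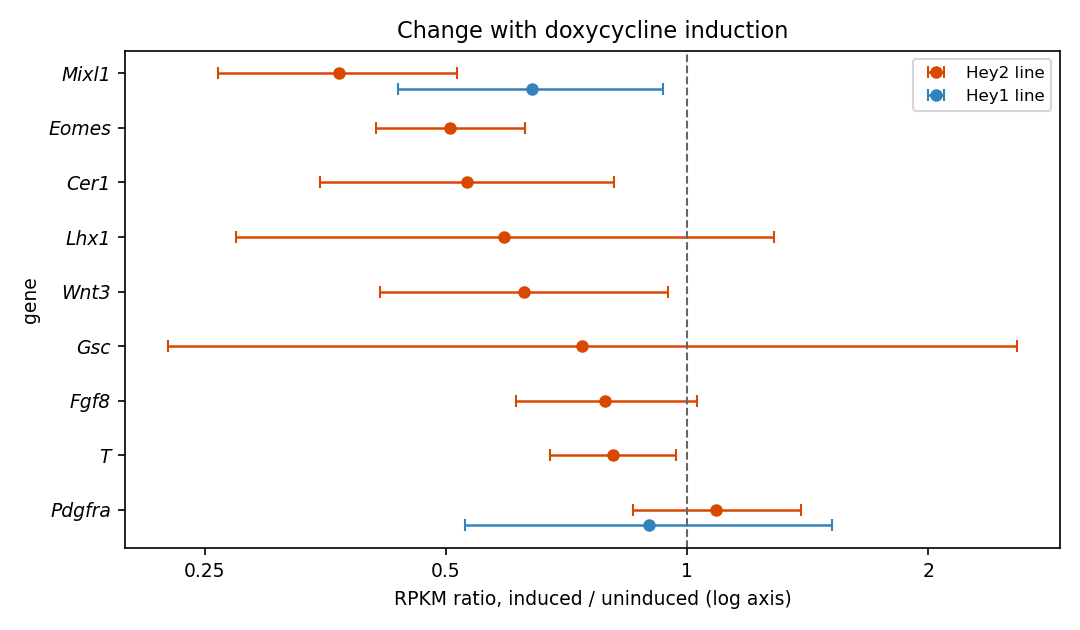
RPKM ratio of induced to uninduced cells (log axis) with 95% counting intervals, for the 9 genes with values in both Hey2-line libraries and the 2 with values in both Hey1-line libraries. Mixl1 lies farthest to the left in the Hey2 line (ratio 0.367) and also below 1 in the Hey1 line (0.640), while both intervals of Pdgfra hold 1.

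In the Hey1 line 8 of the 10 genes were blank with and without induction, so no ratio exists for them. Mixl1, read 74 and 48 times, was 1.56-fold lower in the induced library (1.07 to 2.30). Of 10644 genes compared in the Hey1 line, 13.7% had an interval below 1 and 5.11% one above 1, 60.9% had a ratio under 1, and the median log2 ratio over genes was −0.07. By the 2-fold rule on log2(RPKM + 1) Mixl1 was not among the 0.122% of genes lower or the 0.0376% higher, at −0.50. The log2 ratio of Mixl1 was −1.44 with Hey2 and −0.64 with Hey1 induction, a difference of −0.80 (−1.51 to −0.09) that lay beyond counting error. Pdgfra had a Hey1-line ratio of 0.897 (0.528 to 1.52), within counting error, and its log2 ratios in the 2 lines were 0.28 apart (−0.51 to 1.07).

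Cell type markers moved with Hey1 induction as well, beside 13.7% of all compared genes lower and 5.11% higher beyond counting error. Of 7 pluripotency markers compared 2 were lower beyond counting error, Sox2 (ratio 0.554, 0.368 to 0.823) and Zfp42 (0.626, 0.453 to 0.861), and 0 were higher. Of 4 fibroblast markers 3 were lower, Col1a2 (0.627), Col3a1 (0.779) and Postn (0.668), and 0 were higher. Of 2 visceral endoderm markers 1 was lower, Afp (0.718). These calls held under both scalings. Of 8 cardiomyocyte markers 3 were higher and 3 lower as deposited, and 6 were higher and 2 lower under either scaling. Their part in the lower Mixl1 level was not tested.

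Between the lines, most of the set differed in being listed at all. These comparisons use the same 4 libraries as those with induction and are not independent of them. Of the 9 genes with values in both Hey2-line libraries, 7 were blank in both Hey1-line libraries (T, Eomes, Gsc, Lhx1, Fgf8, Wnt3 and Cer1). Among all genes with values in both Hey2-line libraries 13.1% were, and 6.67% of those with a mean of at least 1 RPKM there. At a mean of at least 5 RPKM the share was 1.9%, and both genes of the set at that level, T and Fgf8, were among them. This pattern was known when the genes were chosen, so nothing is read from its count.

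Over the floor of the Hey1 line, uninduced Hey2-line levels gave bounds before counting error of 26.6-fold for T, 23.9-fold for Eomes and 13.3-fold for Fgf8. The bounds were 6.31-fold for Cer1, 6.05-fold for Wnt3 and 1.93-fold for Lhx1. Between induced libraries they were 21.8-fold for T, 12.3-fold for Eomes, 10.6-fold for Fgf8, 3.83-fold for Wnt3, 3.40-fold for Cer1 and 1.16-fold for Lhx1. Counting error lowers these bounds. With reads set against 1 fewer than the floor, the uninduced lower limits were 15.3-fold for T, 13.7-fold for Eomes and 7.46-fold for Fgf8. Those of Cer1 and Wnt3 were 3.41-fold and 3.26-fold. For Lhx1 at its smallest length the limits were 0.879 uninduced and 0.535 induced, so its bound is within counting error of 1. At its smallest length Gsc lay under the floor of the Hey1 line and gives no fold. Longer gene models of Lhx1 and Gsc would lower their floors, so Lhx1 would have a larger bound and Gsc might have one.

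Pdgfra was 4.09-fold higher in the Hey2 line without induction (2.75 to 6.25) and 4.96-fold with it (3.37 to 7.54). Mixl1, the other gene with values in both lines, was 1.55-fold higher in uninduced Hey2-line cells (1.12 to 2.14) as deposited. Between the induced libraries its ratio of 0.889 held 1 (0.597 to 1.33). Scaling the libraries by median of ratios moved every log2 ratio between the uninduced lines by −0.22, and by upper quartile by −0.19. Mixl1 was then 1.33-fold higher (0.964 to 1.83) and 1.36-fold higher (0.986 to 1.87), so its difference between lines was not beyond counting error on either scale. The bound of Lhx1 between induced libraries, at its smallest length, became 0.935 and 0.978, which is no longer a higher level. Such differences were common between the lines, with the interval above 1 for 44.5% of 11171 genes compared uninduced and for 47.9% of 11133 induced. At least 2-fold higher on the log2(RPKM + 1) scale were 20.1% and 22.9%, Pdgfra among them in both comparisons, at 1.16 and 1.31. The lower cardiomyocyte and higher pluripotency marker levels of the Hey2 line moved with this contrast, and markers of other cell types moved with it too. Of 5 fibroblast markers compared between uninduced lines 3 were higher in the Hey2 line, Col1a1 (ratio 1.41), Col1a2 (2.91) and Dcn (2.68), and Postn was lower (0.578), while Lum and Thy1 were listed in the Hey2 line alone. Their summed level was 42.6 RPKM in the uninduced Hey1 and 64.3 RPKM in the uninduced Hey2 line. Visceral endoderm markers went both ways. Afp (58.5 and 1.42 RPKM) and Ttr were lower in the uninduced Hey2 line, and Cubn was higher (0.346 and 5.21 RPKM). Amn was listed in the Hey2 line alone. Its uninduced level of 1.03 RPKM, from 10 reads, was 1.29-fold the Hey1-line floor, so its blank there says little. The part of these markers in the differences of Pdgfra and the other genes was not tested.

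**Figure D3:**
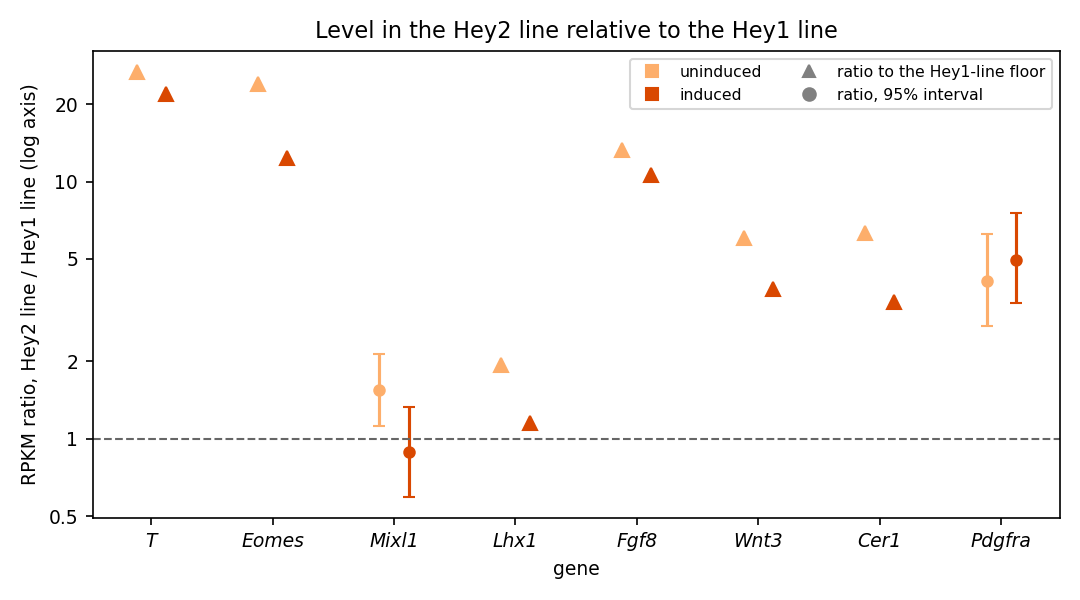
RPKM ratio of the Hey2 line to the Hey1 line (log axis) for the 8 genes that give a fold. Circles are ratios with 95% counting intervals. Triangles are bounds, the listed level over the floor of a blank Hey1-line library, drawn without counting error. T has the highest bound (26.6 uninduced), while Mixl1 lies at 1.55 uninduced, with its interval above 1, and at 0.889 induced, with its interval holding 1.

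Further gastrulation genes, 94 in all, were then read in the Hey2 line: those of the Nodal, Wnt, Fgf, Bmp, endoderm and node, mesoderm and Pdgf groups. Of these, 70 were listed in both Hey2-line libraries and averaged 1 RPKM or more. The interval of the ratio lay below 1 for 10 of 70 and above 1 for 6 of 70, beside 6.72% and 7.88% of all genes, and the median log2 ratio of the 70 was 0.03. In the Hey1 line 49 were compared, with 4 lower (Aplnr, Cxcr4, Ctnnb1 and Bmpr1a) and 1 higher (Id2). Among all genes compared in that line, 13.7% were lower and 5.11% higher beyond counting error. Under both scalings 2 of the 4 held, Aplnr and Ctnnb1, while 4 genes were higher by median of ratios and 2 by upper quartile.

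Of 14 Wnt genes compared, 3 were lower and 1 was higher beyond counting error. Wnt8a, a ligand made in the streak, went from 7.21 to 3.93 RPKM, 1.83-fold lower (1.27 to 2.65). Lef1, a nuclear effector of Wnt signals, stood at 2.17 and then 1.31 RPKM, lower by 1.66-fold (1.09 to 2.53), and Sp5, a direct Wnt target, 1.49-fold lower (1.01 to 2.18), at 4.31 and 2.90 RPKM. All 3 were blank in the Hey1 line, like Wnt3 and T. The Wnt co-receptor Lrp5 was 1.18-fold higher (1.02 to 1.38), and the Wnt feedback gene Axin2 stood at 3.76 and 4.55 RPKM, a ratio of 1.21 that held 1 (0.942 to 1.57).

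Eomes and Mixl1 respond to Nodal signals in the embryo. Of 16 Nodal pathway genes compared, 0 were lower and 3 were higher beyond counting error. The ligand Nodal stood at 9.63 and 9.76 RPKM (ratio 1.01, 0.804 to 1.28) and its co-receptor Tdgf1 at 54.2 and 57.0 RPKM (1.05, 0.951 to 1.16). The feedback inhibitor Lefty2 was 1.21-fold higher (1.05 to 1.39), at 21.5 and 25.9 RPKM, and Lefty1 had a ratio of 0.857 (0.684 to 1.08). These 2 are close paralogs, and how shared reads were assigned is not given, so their values are uncertain. The receptor Acvr2b was 1.50-fold higher (1.00 to 2.29) and the protease Furin, which processes Nodal, 1.19-fold higher (1.04 to 1.36).

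In the mesoderm group 7 of 21 genes were compared, with 2 lower and 0 higher, and 7 were blank in all 4 libraries. Aplnr, the apelin receptor of streak-derived mesoderm (under its older symbol Agtrl1), went from 4.54 to 2.19 RPKM with Hey2 induction, 2.07-fold lower (1.52 to 2.83). With Hey1 induction it went from 4.66 to 2.96 RPKM, 1.58-fold lower (1.18 to 2.12). Kdr, a receptor of blood and endothelial precursors, was 1.57-fold lower in the Hey2 line (1.04 to 2.37), at 1.50 and 0.956 RPKM. Of 9 endoderm and node genes 2 were lower and 0 higher. Cxcr4, a chemokine receptor of definitive endoderm, stood at 2.88 and 1.43 RPKM, a ratio of 0.499 (0.285 to 0.868), and was 1.61-fold lower in the Hey1 line (1.03 to 2.55), though there the interval held 1 after either scaling. Otx2, an epiblast and anterior factor, was 1.22-fold lower (1.04 to 1.42), at 27.6 and 22.7 RPKM. The endoderm factors Foxa2 (ratio 0.753, 0.521 to 1.09) and Sox17 (1.14, 0.826 to 1.58) did not differ beyond counting error.

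Of 11 Bmp genes 2 were lower and 1 was higher. The Bmp targets Id2 and Id3 were 1.50-fold (1.06 to 2.12) and 1.38-fold lower (1.01 to 1.87). In the Hey1 line Id2 went the other way with induction, from 18.4 to 23.9 RPKM, a ratio of 1.30 (1.06 to 1.59) that stayed above 1 under both scalings. In the Hey2 line the Bmp inhibitor Nog was 1.64-fold higher (1.05 to 2.64), at 2.44 and 4.01 RPKM. Chrd, another Bmp inhibitor of the organizer, was singled out after its values were seen. It lay under the mean of 1 RPKM, at 1.16 and 0.392 RPKM, and was 2.96-fold lower (1.46 to 6.23). Of 10 Fgf genes 1 was lower and 0 were higher. This was Dusp6, a phosphatase induced by Fgf signals, 1.21-fold lower (1.04 to 1.40), at 18.8 and 15.6 RPKM. Of 3 Pdgf genes 1 was higher, the ligand gene Pdgfb, 1.57-fold (1.23 to 2.03), at 5.14 and 8.09 RPKM. The Pdgfra ligand gene Pdgfa had a ratio of 1.29 (0.812 to 2.11).

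**Figure D4:**
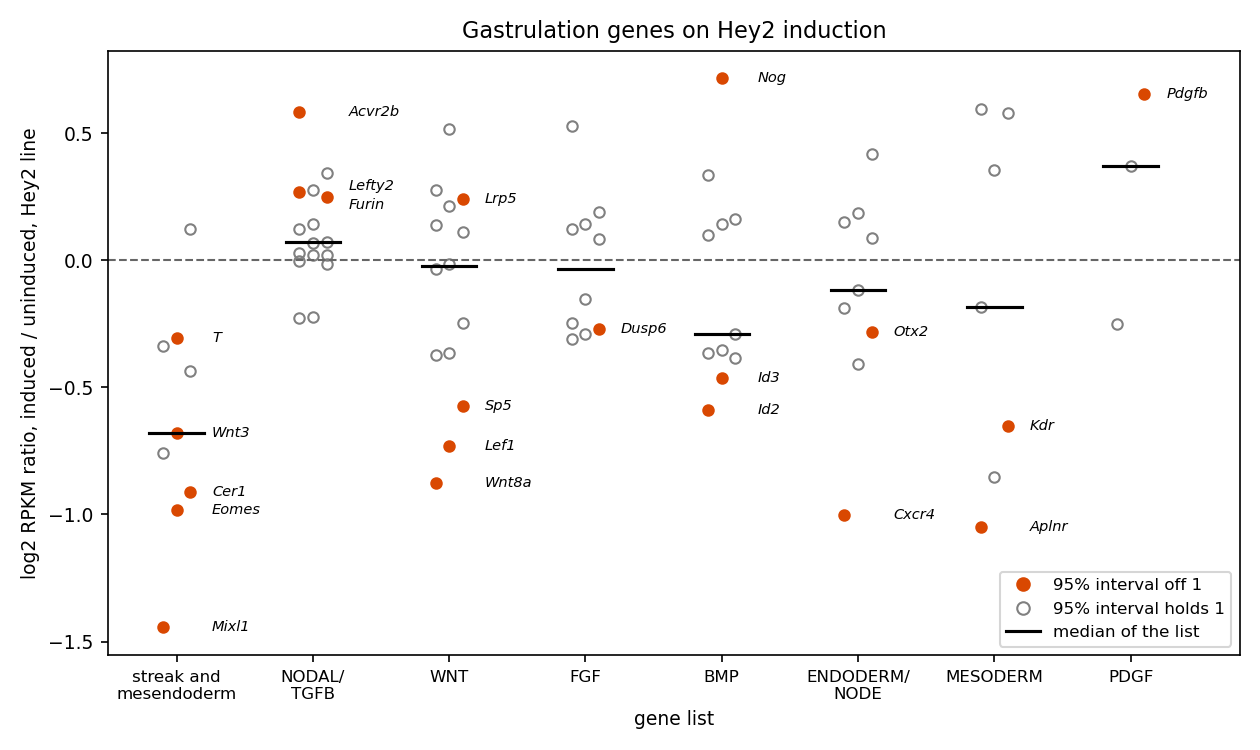
Log2 RPKM ratio of induced to uninduced Hey2-line cells for the streak and mesendoderm genes with both values and for 7 lists of further gastrulation genes; filled points have a 95% counting interval off 1 and bars are list medians. The bar of the streak genes lies at −0.68, and that of the Nodal list at 0.07 with 0 filled points below the zero line.

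Markers of other cell types that make some of these genes were read in the same Hey2-line libraries. The summed level of the 6 visceral endoderm markers, a tissue that also makes Cer1, Eomes and Lhx1, was 9.08 RPKM uninduced and 9.75 RPKM induced, with 4 and 5 of them listed and Apoa1 blank in every library. Cubn was the largest part of the sum, at 5.21 and 5.92 RPKM. Cubn and Ttr had ratios above 1, and Afp (0.685) and Amn (0.887) under 1, all within counting error as deposited. Apoa4 was listed in the induced library alone, from 5 reads. Of 7 fibroblast markers, which go with Pdgfra, all were listed, at summed levels of 64.3 and 81.4 RPKM, and 5 of 7 were higher beyond counting error. Of 9 pluripotency markers 3 were higher (Nanog, Esrrb and Dppa5a) and 1 was lower (Pou5f1). Of 8 cardiomyocyte markers 2 were higher (Myh6 and Myh7) and 0 lower. Beside these counts, 6.72% of all compared genes were lower and 7.88% higher beyond counting error. The summed level of 5 endothelial markers was 5.81 and 6.70 RPKM, and that of 5 neural markers 23.5 and 22.1 RPKM. The part of these shifts in the differences of the streak genes was not tested.

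Genes whose 4 values were most like those of T and of Mixl1 were found by Euclidean distance on log2(RPKM + 1), with blanks as 0. Nearest to T were Six6os1 (distance 0.0839), the small nucleolar RNA gene Snord49a (0.192), the tight junction gene Cldn7 (0.220), the RNA-binding protein gene Lsm5 (0.235) and the gene with Entrez identifier 100628588 (0.244). All 5 were blank in the Hey1 line, which follows largely from the choice by these same values. Their intervals for Hey2 induction held 1, with ratios from 0.792 for Snord49a to 0.902 for Lsm5, beside 0.809 for T. Snord49a (0.272 to 2.45) and the gene with Entrez identifier 100628588 (0.312 to 2.34) rest on few reads. Since blanks entered as 0 whatever the floor, their blanks say little of their level in the Hey1 line.

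Nearest to Mixl1 were Dph3, a gene of diphthamide synthesis (0.397), the pseudouridine synthase gene Pusl1 (0.463), Aplnr (0.513), the potassium channel subunit gene Kcnip1 (0.514) and BC017643 (0.529). All 5 were lower after Hey2 induction beyond counting error, from 1.49-fold for BC017643 to 2.25-fold for Kcnip1, and all 5 lay lower in the induced than in the uninduced Hey1-line library. These directions follow largely from the choice, which used the same 4 values, and are no separate result. Aplnr is the one gene of the gastrulation lists among them. The likeness rests on 4 libraries and says nothing of shared function or control.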

How the data were processed

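RNA-seq values of 4 libraries were used; the 8 chromatin immunoprecipitation samples were not analysed here. The authors deposited RPKM for each library, per the file headers, and a signed fold per line (a score computed by the authors), which no result uses. Bowtie 1.0, DESeq and MACS 1.4.1 and the build mm9 are named, per the submitters' processing notes, without a role. The annotation, the counter and any use of strand are not stated, so reads of overlapping antisense genes cannot be told apart.

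Reads were recovered as RPKM times length times a library divisor (7.4, 7.5, 5.75 and 10.375 megareads, found by a scan), taking the smallest whole length up to 25000 bases that gave whole reads within the rounding of the values. This worked for 15363 of 15371 genes, and for 10.4% with 1 divisor set wrong by 1%. The share does not settle the divisors alone: on a subset of genes it was 99.9% with those used and with all divisors doubled. It was also 99.9% with the divisors of either line alone doubled, and 98.5% with all halved. The smallest set at 99.9% was kept (51.2% odd lengths), so read numbers, the floors in reads of each line and intervals rest on that choice. On simulated reads of 977 genes in the 4 libraries, 95.8% came back exactly. The simulation used the recovered lengths and the same divisors. It therefore cannot show a wrong divisor or a true length that is a multiple. For 634 genes a multiple of the smallest length was used, to bring listed reads up to the floor.

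Ratios of RPKM carry exact conditional binomial 95% intervals, levels exact Poisson intervals, and differences of log2 ratios normal intervals; all cover counting error only, and PCR copies are not independent reads. No p-values were computed, with 1 library per group. Genes were compared when listed in both libraries at a mean of at least 1 RPKM, and the 2-fold rule used log2(RPKM + 1). Named are all 10 genes, the list genes whose interval excluded 1 (with others chosen after their values were seen, such as Nodal, Tdgf1, Lefty1, Axin2, Foxa2, Sox17 and Pdgfa), and the 5 nearest to T and to Mixl1. A few list genes were matched under older symbols by Entrez identifier. Members, lists and rules were chosen with earlier results of these data known. Promoters are from RefSeq tables. Python 3.11.15, NumPy 2.4.6, pandas 2.3.3, SciPy 1.17.1 and Matplotlib 3.10.9 were used.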

Additional observations from a re-analysis of the deposited data

Results flagged for a closer look

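Mixl1 had a different log2 ratio with induction in the 2 lines, −0.80 as Hey2 line minus Hey1 line, with a 95% counting interval of −1.51 to −0.09 that excludes 0. Pdgfra had point ratios on opposite sides of 1, 1.09 in the Hey2 line and 0.897 in the Hey1 line, neither beyond counting error. The difference of 0.28 on the log2 scale has a counting interval (−0.51 to 1.07) that holds 0. With 1 library per group, neither difference was tested against the spread between cultures.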

How the results depend on the processing

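No paired analysis was possible because each group had 1 library and the labels give no replicate numbers. Median of ratios and upper quartile scaling, pseudocounts of 1 and 0.1 RPKM, other filters and other treatments of blanks left 141 of 152 recomputed values within counting error or within 1.5 times the count, and 11 moved, none reversed. The scalings moved all log2 ratios between uninduced lines by −0.22 (median of ratios) and −0.19 (upper quartile), and those with induction by at most 0.09. Under both, the 5 calls of Hey2 induction and that of Mixl1 in the Hey1 line held, while the interval of Mixl1 between uninduced lines came to hold 1. With a pseudocount of 1 RPKM the median over the 8 genes of the log2 ratio or bound between uninduced lines, 6 of them lower bounds against a floor, was 1.53 instead of 2.63. At a mean of at least 5 RPKM, 0 of the streak genes were 2-fold lower with Hey2 induction, the interval lay below 1 for 1 (T), and for 0 in the Hey1 line, since most of them lie under that level. For the further gastrulation genes the count below 1 was then 5. With a pseudocount of 0.1 RPKM, 1 of these genes (Aplnr) was 2-fold lower. With the lengths of Lhx1 and Gsc at 4 times the smallest, chosen after seeing the data, 6 instead of 5 streak genes lay below 1. Depth limits Gsc, Lhx1 and Mesp1 most, at 5 to 16 reads by the recovered lengths.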
